A study of Mus musculus with 48 samples.

Results

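The methylation of 36 genes of the glutamate synapse was examined in the mouse amygdala: the subunits of the AMPA, NMDA, kainate and delta receptors, 7 metabotropic receptors, the vesicular and plasma membrane glutamate transporters, the 2 Neto proteins, the 3 Shank scaffolds and Dlg4. Their loci were the 434 of 187695 methylated loci that overlapped the gene body, or the 5 kb on either side of it, of 1 of these genes (GRCm38). A locus is a region in which reads of captured methylated DNA were enriched, merged over libraries. All 36 genes had a locus, each locus belonged to 1 of them, and no locus was removed for low counts. The rule that chose the genes used their function and no measured value, although earlier results of these data were known when it was set.

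The amygdala DNA was that of males aged 4 months, C57BL/6 by the labels and C57BL/6N by the study's methods, with 1 of 3 genotypes, Tph2+/+, Tph2+/- or Tph2-/-. Tph2 encodes the enzyme that makes serotonin in neurons of the brain, and its inactivation in these mice is constitutive, so it is present in every cell and at every age. For maternal separation (MS), pups spent 3 h a day apart from their mother between postnatal days 2 and 15, and controls (C) were not separated. Whole litters were assigned to MS or C, and the labels do not name the litter of a mouse. Each genotype was divided into C and MS mice, which gave 6 groups of 8 libraries, and all mice had undergone behavioral tests before the tissue was taken. Tissue of both hemispheres was blended, so a change in the share of a cell type and a change of methylation within cells cannot be told apart, and DNA offers no expression marker with which to check the label amygdala. A total of 46 libraries entered the fits, after 2 Tph2-/- MS libraries with the lowest totals were left out.

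Glutamate opens AMPA, NMDA and kainate receptor channels, which carry fast excitatory transmission, and it acts more slowly through metabotropic receptors that couple to G proteins. Vesicular transporters load glutamate into synaptic vesicles, transporters in the membrane of astrocytes and neurons clear it from the cleft, and scaffolds such as the Shank proteins and PSD-95 (Dlg4) hold the receptors in the postsynaptic density. In the amygdala, NMDA receptors and the metabotropic receptor Grm5 are known for their part in fear learning. DNA methylation in mammals sits mostly on the cytosine of CpG dinucleotides, and dense CpG stretches at promoters are usually free of it.

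The loci behind the main results are shown by their 200 bases richest in CpG, on the strand of the gene, with each CpG in capitals. The first 3 are intronic loci of Gria3, Grm5 and Grm7, of which those of Gria3 and Grm5 had the highest level of all AMPA receptor and metabotropic receptor loci. Their sequences came from chrX:41482789-41482988, chr7:87902823-87903022 and chr6:111013536-111013735 of the plus strand.
Gria3: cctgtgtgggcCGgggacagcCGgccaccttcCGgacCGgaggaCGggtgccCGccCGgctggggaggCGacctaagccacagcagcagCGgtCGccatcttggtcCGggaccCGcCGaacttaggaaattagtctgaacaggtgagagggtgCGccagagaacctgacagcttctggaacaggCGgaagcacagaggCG
Grm5: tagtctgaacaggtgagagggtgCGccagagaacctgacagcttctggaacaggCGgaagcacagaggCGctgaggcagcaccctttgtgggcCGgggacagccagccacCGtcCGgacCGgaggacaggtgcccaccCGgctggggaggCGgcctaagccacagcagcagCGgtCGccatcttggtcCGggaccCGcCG
Grm7: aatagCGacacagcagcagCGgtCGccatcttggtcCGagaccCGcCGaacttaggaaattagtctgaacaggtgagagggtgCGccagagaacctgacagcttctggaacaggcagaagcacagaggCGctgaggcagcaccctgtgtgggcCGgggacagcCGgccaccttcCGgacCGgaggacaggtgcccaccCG
The 3 windows shared long identical runs, of 70 bases between Gria3 and Grm5, 76 bases between Gria3 and Grm7 and 55 bases between Grm5 and Grm7, although the genes lie on 3 chromosomes. The loci were 82.2% (Gria3), 99.6% (Grm5) and 69.3% (Grm7) repeat-masked.

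The next 4 windows come from loci of coding exons and from a locus of a kainate receptor intron that was low after MS. They lie on the minus strand at chr9:106647444-106647643 (Grm2), chr5:9570335-9570534 (Grm3), chr7:45833475-45833674 (Grin2d) and chr9:42560436-42560635 (Grik4).
Grm2: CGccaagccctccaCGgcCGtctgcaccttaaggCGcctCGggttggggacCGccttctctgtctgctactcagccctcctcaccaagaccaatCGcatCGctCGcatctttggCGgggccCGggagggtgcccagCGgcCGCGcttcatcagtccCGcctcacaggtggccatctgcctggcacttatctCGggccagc
Grm3: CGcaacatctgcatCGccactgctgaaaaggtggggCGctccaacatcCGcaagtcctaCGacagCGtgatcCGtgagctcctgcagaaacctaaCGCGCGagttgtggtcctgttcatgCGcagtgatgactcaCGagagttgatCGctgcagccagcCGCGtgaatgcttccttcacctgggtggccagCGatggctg
Grin2d: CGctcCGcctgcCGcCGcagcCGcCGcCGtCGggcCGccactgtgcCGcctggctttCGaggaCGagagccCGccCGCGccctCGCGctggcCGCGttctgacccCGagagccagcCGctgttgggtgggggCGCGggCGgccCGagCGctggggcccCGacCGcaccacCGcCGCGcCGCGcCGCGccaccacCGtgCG
Grik4: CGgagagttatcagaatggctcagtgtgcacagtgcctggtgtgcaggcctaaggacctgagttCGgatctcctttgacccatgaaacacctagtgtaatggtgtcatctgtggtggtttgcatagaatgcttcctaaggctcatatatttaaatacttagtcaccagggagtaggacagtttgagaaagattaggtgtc
These windows held 16 CpGs in Grm2, 16 in Grm3, 37 in Grin2d and 2 in Grik4. The first 3 lie wholly in coding sequence.

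Libraries held 7.72 to 14.1 M counts in the loci, and a member locus held between 9.3 and 308 counts on average, with a median of 26.6. The counting error of a single locus in 1 library is therefore wide, and the standard errors below include it. The labels give each library a number, and MS and C never shared a run of these numbers: S1 to S17 and S42 to S48 were C, and S18 to S26 and S27 to S41 were MS. Counts of the 8 fitted libraries S18 to S26 rose more with the CpG density of a locus (0.107 ± 0.095 log2 units per SD of CpG density, SD over 8 libraries) than those of the 14 libraries S27 to S41 (-0.0272 ± 0.0451, SD), and 4 of the 8 libraries had the highest values of all. What the numbers mark is not given, so values without S18 to S26 stand beside the MS results below. None of the 15 loci at Tph2 had ranges that did not overlap between Tph2-/- and Tph2+/+ libraries, and the labels do not give the deleted part, so these loci do not check the genotypes.

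Levels are given as CPM (read counts scaled to a common library size, with factors from the trimmed mean of M-values, TMM, which match each library to the bulk of its loci), and they measure how much methylated DNA was captured and not the percent of methylated cytosines. The number of loci differed widely between genes. Grik4 had 89 loci, Grik3 58 and Grm4 34, which was 41.7% of all loci of the 36 genes, whereas Gria2, Gria3, Slc17a6, Slc17a7 and Neto1 had 1 locus each. Per 100 kb of gene and flanks the density ran from 0.347 loci (Gria3) to 39.1 (Grin2c). The median of the 36 genes was 4.97 loci per 100 kb, against 7.43 over 21774 protein-coding genes, and 15 of the 36 lay above the latter.

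**Figure D1:**
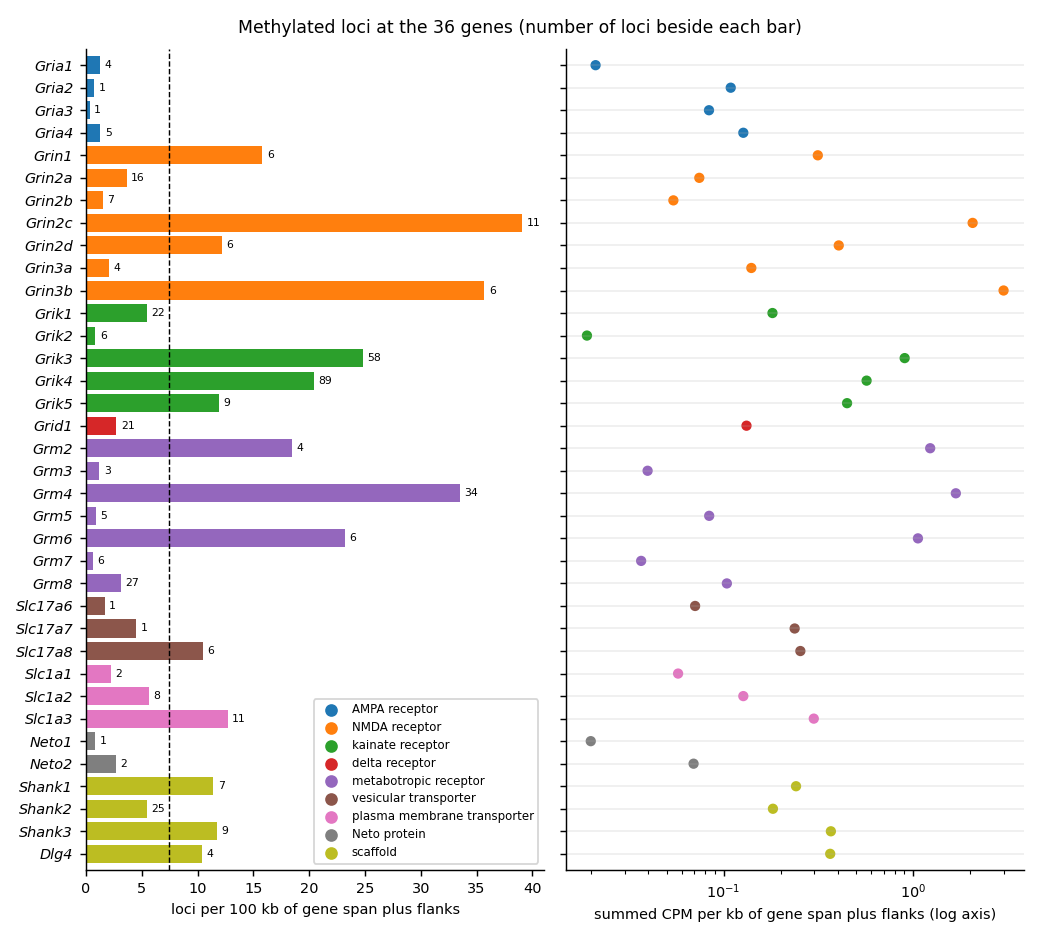
Loci per 100 kb of gene span plus flanks (left, bars, with the number of loci beside each and a dashed line at the median of protein-coding genes, 7.43) and mean summed CPM per kb of the same window (right, log axis) for the 36 genes, coloured by role. Grin2c and Grin3b lead both panels, and the AMPA receptor genes lie below the dashed line.

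The AMPA receptor genes carried few loci for their length. Gria1 had 4, Gria2 and Gria3 1 each and Gria4 5, and all 4 genes had a density of 1.29 per 100 kb or less. Their summed level was 0.0211 CPM per kb of gene and flanks in Gria1, 0.109 in Gria2, 0.0837 in Gria3 and 0.127 in Gria4. The Gria3 total was that of 1 intronic locus (chrX:41482128-41483979), the locus of highest level in the role at 13 CPM per kb of locus.

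The NMDA receptor genes held 56 loci and were split by gene length. The short genes Grin2c (11 loci, 2.06 CPM per kb), Grin3b (6 loci, 3 CPM per kb), Grin2d (6 loci, 0.405) and Grin1 (6 loci, 0.314), the last of which encodes the subunit that every NMDA receptor needs, had 12.2 to 39.1 loci per 100 kb. The long genes Grin2a (16 loci, 0.0744 CPM per kb), Grin2b (7 loci, 0.0543) and Grin3a (4 loci, 0.14) had 1.49 to 3.65. Grin2a and Grin2b encode the glutamate-binding subunits that prevail in the forebrain.

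The kainate receptor genes held the most loci of any role, 184. Grik3 (0.902 CPM per kb) and Grik4 (0.568) had 24.8 and 20.4 loci per 100 kb over genes of 224 and 427 kb, spread along the whole gene. Grik5 had 9 loci (0.448 CPM per kb), Grik1 22 (0.181) and Grik2 6 over 696 kb (0.019, the lowest level of the 36 genes). The delta receptor gene Grid1, whose protein organises synapses, had 21 loci and 0.132 CPM per kb.

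Among the metabotropic receptors, Grm2 (4 loci, 1.23 CPM per kb), Grm4 (34 loci, 1.68) and Grm6 (6 loci, 1.06) stood above the others. Grm3, Grm5, Grm7 and Grm8 had 3, 5, 6 and 27 loci, and levels of 0.0397, 0.0839, 0.0367 and 0.104 CPM per kb over genes of 240.1 to 922 kb. Grm2 and Grm3 are the receptors of the same group that lower transmitter release, and Grm2 had 18.5 loci per 100 kb where Grm3 had 1.2.

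The transporters carried fewer loci. Of the vesicular transporters, Slc17a7 and Slc17a6, which load glutamate in cortical and subcortical neurons, had 1 coding-exon locus each (0.237 and 0.0707 CPM per kb), and Slc17a8 had 6 (0.254). Of the plasma membrane transporters, the neuronal Slc1a1 had 2 loci (0.0575 CPM per kb), and the astrocytic Slc1a2 and Slc1a3 had 8 (0.127) and 11 (0.299). The auxiliary proteins of kainate receptors, Neto1 and Neto2, had 1 locus (0.0199) and 2 loci (0.0694). The scaffolds Shank1, Shank2, Shank3 and Dlg4 had 7, 25, 9 and 4 loci at 0.241, 0.182, 0.368 and 0.365 CPM per kb.

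Most loci lay within genes and away from their starts. Of the 434 loci, 65.2% were intronic, 19.8% touched a coding exon and 2.76% a transcript start (within 500 bp), against 47.1%, 26.4% and 4.48% of all locus and gene pairs of protein-coding genes. Of the 283 intronic loci, 79 lay in Grik4, 44 in Grik3 and 23 in Grm4, so these shares lean on 3 genes. The 12 loci at transcript starts belonged to Grm4 (5), Grik4 (2), and Grin2d, Grid1, Grm6, Grm8 and Slc17a8 (1 each). The level, width and CpG density of a typical locus did not stand apart, with medians of 2.73 CPM per kb, 914 bp and 1.86 CpG per 100 bp, against 2.76, 916 and 1.82 over all loci.

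**Figure D2:**
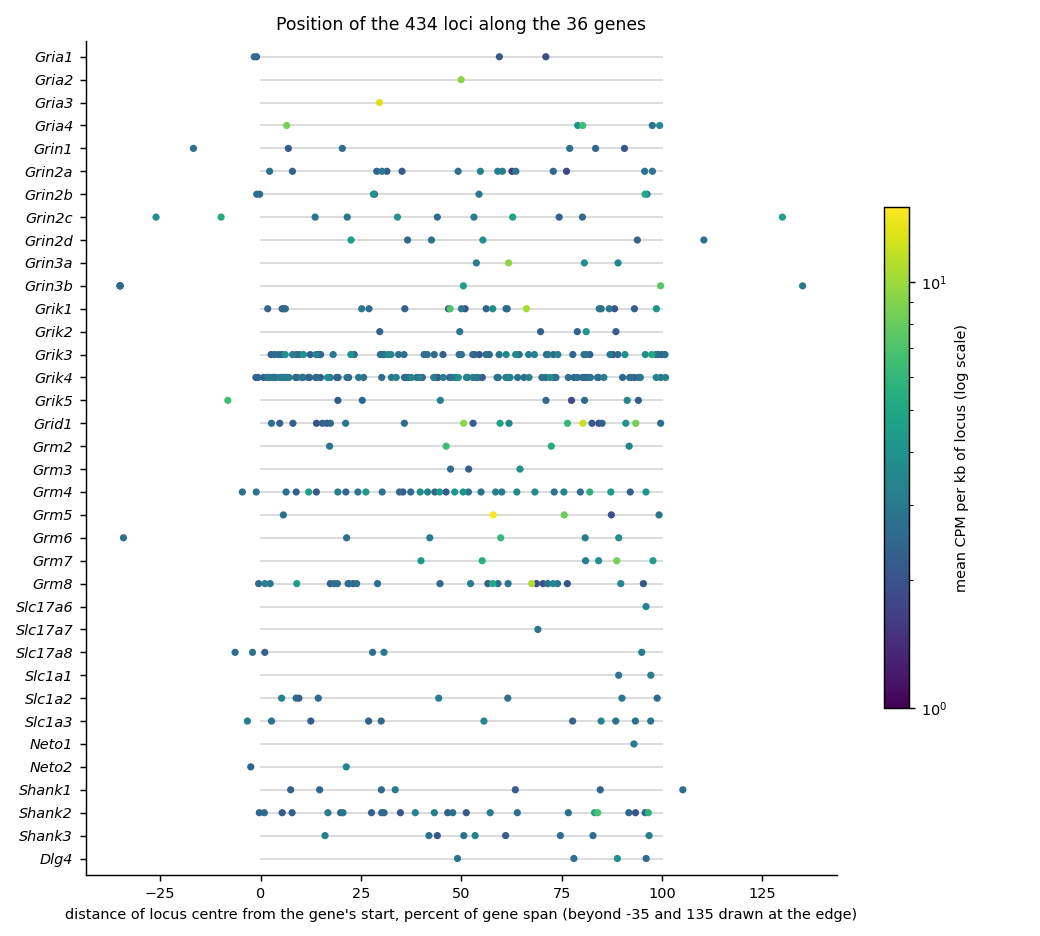
Position of each of the 434 loci along its gene, as percent of the gene span from its start (0) to its end (100), 1 row per gene, coloured by mean CPM per kb of locus on a log scale. Loci of Grik3, Grik4 and Grm4 cover the whole gene, and the points of highest level lie inside Gria3, Grm5 and Grid1.

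No promoter window at hand carried a locus. RefSeq windows of 300 bases, from 250 before to 50 after a gene's start, were at hand for 24 of the 36 genes (32 windows, GRCm38). None was at hand for Gria1, Gria3, Grin2a, Grin2b, Grin3a, Grik1, Grid1, Grm4, Grm5, Neto1, Shank1 and Shank2. Of the 12 loci at transcript starts, 5 belonged to Grm4 and 1 to Grid1, so the windows leave out genes with such loci. None of the 32 overlapped a locus, compared with 10.5% of 32851 windows of all genes. Of the 14 windows with 15 or more CpGs none overlapped a locus, compared with 2.72% of such windows of all genes, and of the other 18 none did, compared with 14.5%. The promoter of Grin1, which had 6 loci elsewhere, is shown as an example of a window dense in CpG without a locus. The 250 bases before its start (chr2:25319188-25319437, minus strand, GRCm38) held 27 CpGs, in capitals.
Grin1 promoter: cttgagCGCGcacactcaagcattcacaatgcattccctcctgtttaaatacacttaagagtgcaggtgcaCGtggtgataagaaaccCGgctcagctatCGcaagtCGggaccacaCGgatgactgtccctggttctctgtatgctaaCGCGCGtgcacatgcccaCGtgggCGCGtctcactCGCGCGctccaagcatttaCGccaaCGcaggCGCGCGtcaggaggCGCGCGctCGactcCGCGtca
The absence of a locus shows that no enrichment was called there, and not that the CpGs were unmethylated.

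The loci of highest level in the receptor and scaffold roles were intronic repeats. The 12 loci of highest CPM per kb among the 434 were all intronic and more than 50% repeat-masked, and 16 of the first 20 were. They included the Grm5 locus chr7:87902402-87904346 (14.6 CPM per kb), the Gria3 locus, the Grid1 locus chr14:35432048-35434132 (11.9), the Grik1 locus chr16:88028456-88030212 (10.4) and the Grin3a locus chr4:49731185-49732965 (9.43). In Shank2 the highest was chr7:144353579-144354919 (6.81) and in Neto2 chr8:85686715-85687770 (3.55), also repeats, whereas Slc17a6 (3.36, coding exon, chr7:51668538-51669787) and Slc1a3 (3.55, intron with 7.91% repeats, chr15:8667702-8668586) led the transporters. Over all 434 loci 14.7% were more than 50% repeat-masked, fewer than the 25.7% of all loci. A total of 25 loci, among them those of Grm5, Grid1, Shank2 and Neto2 just given, had another copy in the reference at 95% identity or more, so part of their reads may belong to other places. A copy had to cover 50% of the locus. The Gria3 locus and the Grm7 locus shown above had none. Yet the identical runs of 55 to 76 bases among the Gria3, Grm5 and Grm7 windows are longer than 1 read of 50 bp. Part of the reads at those loci may thus belong elsewhere too.

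The 30-base stretch held by the most loci of these genes tied several of them together. It was found in 12 loci of 9 genes, namely Gria2, Gria3, Gria4, Grik1, Grik2, Grid1, Grm5, Grm7 and Grm8, and in 1.9% of all loci (3564).
Shared stretch: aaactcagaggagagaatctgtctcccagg
All 12 were intronic, their median level was 7.37 CPM per kb against 2.7 in the other 422 loci, and their median CpG density was 2.94 per 100 bp against 1.82.

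The MS effect was tested over genotypes and within each genotype, to ask whether early-life separation leaves a mark on these genes. No locus of the 36 genes passed an adjusted p of 0.05 in the comparison of MS with C over genotypes (edgeR's quasi-likelihood test, smallest adjusted p = 0.0979, with 69 loci at an unadjusted p under 0.05). DESeq2 gave 5 loci an adjusted p under 0.05, all higher after MS: 2 of Grm5 and 1 each of Gria3, Gria4 and Grik1. In the whole series it gave 1226 of 187695 loci such a p. All 5 were intronic and 82.2 to 99.6% repeat-masked, and all but the Gria3 locus had copies elsewhere in the reference. The study's call limits were an unadjusted p below 0.01 together with a log2 fold change above 0.2 in size. By these limits 27 of the 434 loci (6.22%) passed, compared with 3.63% of all loci. Of these 27, 21 were higher after MS and 6 lower, in 19 genes. Loci that passed as higher made up 2.28% of all loci. With library totals in place of TMM factors 8 were higher and 9 lower (3.92%, against 3.24% of all loci), and the median of all loci moved to -0.047. The median log2 fold change of the 434 loci was 0.035, and that of all loci 0.002.

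By role, 11 of the 85 metabotropic receptor loci passed (9 higher and 2 lower), 6 of the 184 kainate receptor loci (3 higher and 3 lower), 5 of the 56 NMDA receptor loci and 2 of the 11 AMPA receptor loci (all higher), 1 of 21 in Grid1 (higher), 1 of the 45 scaffold loci (Shank2, higher) and 1 of the 21 plasma membrane transporter loci (Slc1a2, lower). The vesicular transporters and Neto proteins, none of whose loci passed, had only 8 and 3 loci, so nothing is read from this. The 21 higher loci had a median of 3.25 CpG per 100 bp and the 6 lower ones 1.35, and 11 of the 21 were more than 50% repeat-masked. Of the 21 loci, 7 held the shared 30-base stretch.

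The Grm7 locus chr6:111013145-111014219, intronic, had the smallest p. Grm7 encodes a presynaptic receptor that restrains transmitter release. Its level in Tph2+/+ C ranged from 3.19 over a median of 3.77 to 5.58 CPM, and in Tph2+/+ MS from 2.57 over 4.66 to 8.02. In Tph2+/- C it ranged from 2.39 over 3.12 to 5.04, and in Tph2+/- MS from 4.63 over 5.45 to 6.82, so that only the highest C library reached into the MS range. In Tph2-/- C it ranged from 3.26 over 4.39 to 7.62, and in Tph2-/- MS from 3.14 over 5.13 to 11.6. The log2 fold change over genotypes was 0.44 ± 0.11 (SE, adjusted p = 0.0979, edgeR), and without S18 to S26 it was 0.18, outside the limits.

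The Grik4 locus chr9:42559502-42560765, intronic and poor in CpG (0.396 per 100 bp), was lower. Grik4 encodes a high-affinity kainate receptor subunit. It ranged from 2 over 3.53 to 4.19 CPM in Tph2+/+ C and from 0.355 over 2.37 to 3.24 in Tph2+/+ MS, from 2.69 over 3.58 to 5.04 in Tph2+/- C and from 1.98 over 2.46 to 3.29 in Tph2+/- MS, and from 2.06 over 3.35 to 5.17 in Tph2-/- C and from 1.73 over 2.7 to 3.96 in Tph2-/- MS. The medians after MS were lower in all 3 genotypes, and the ranges overlapped in each. Over genotypes the difference was -0.47 ± 0.12 on the log2 scale (SE, adjusted p = 0.106, edgeR), and without S18 to S26 it was -0.35, still within the limits.

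The Grm4 locus chr17:27479042-27480230, also intronic, was higher. Grm4 encodes another presynaptic metabotropic receptor. It ranged from 1.63 over 2.54 to 3.79 CPM in Tph2+/+ C and from 2.46 over 3.3 to 4.62 in Tph2+/+ MS, and from 1.96 over 2.94 to 4.63 in Tph2+/- C and from 2.16 over 3.44 to 4.47 in Tph2+/- MS. In Tph2-/- C it ranged from 1.88 over 2.45 to 3.02 and in Tph2-/- MS from 3.23 over 3.81 to 4.4, so these 2 groups did not overlap. The log2 fold change was 0.39 ± 0.11 over genotypes (SE, adjusted p = 0.135, edgeR) and 0.65 ± 0.19 in Tph2-/- (adjusted p = 0.632), and without S18 to S26 the values were 0.33 and 0.53, both outside the limits. The second of these rests on the 3 Tph2-/- MS libraries that remained.

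Without S18 to S26 only 4 of the 434 loci (0.922%) passed the limits over genotypes, 1 higher and 3 lower, compared with 1.26% of all loci. Of the 27 loci, 2 still passed, the Grik4 locus and the Grm5 locus chr7:88065133-88065810 (log2 fold change -0.58 with all fitted libraries and -0.64 without S18 to S26), and none of the 21 higher loci did. The median log2 fold change of the 21 higher loci moved from 0.31 to 0.07, and that of the 6 lower ones from -0.46 to -0.26. Without the single library Tph2-/- MS replicate 2, which is among S18 to S26 and whose counts rose most with CpG density, 12 loci passed (2.76%), 7 of them higher, compared with 2.06% of all loci.

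Within the MS mice, libraries S18 to S26 differed from S27 to S41 at far more loci than MS differed from C. Of the 434 loci, 69 (15.9%) passed the limits, 56 of them higher in S18 to S26, compared with 12.9% of all loci, and 53 had an adjusted p under 0.05, compared with 10.4% of all loci (edgeR). Of the 21 loci higher after MS, 17 were also higher in S18 to S26 at the limits. Libraries S18 to S26 are part of the MS group that chose the 21 loci, so this overlap was in part fixed in advance, and nothing is read from it. Within the controls, libraries S42 to S48 differed from S1 to S17 at 4 of the 434 loci, 1 higher and 3 lower, compared with 2.26% of all loci.

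The contrast between S18 to S26 and S27 to S41 followed CpG density. In the 45 loci with 3 or more CpG per 100 bp the median log2 fold change was 0.50, and 31 loci passed the limits, all higher. The 131 loci with 2 to 3 CpG per 100 bp had a median of 0.11, the 206 with 1 to 2 a median of 0.01 and the 52 with fewer than 1 a median of -0.05. In the same 45 dense loci the median of the MS effect was 0.22 with all fitted libraries and -0.01 without S18 to S26. These loci share their libraries, so the values describe the run and are not independent.

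**Figure D3:**
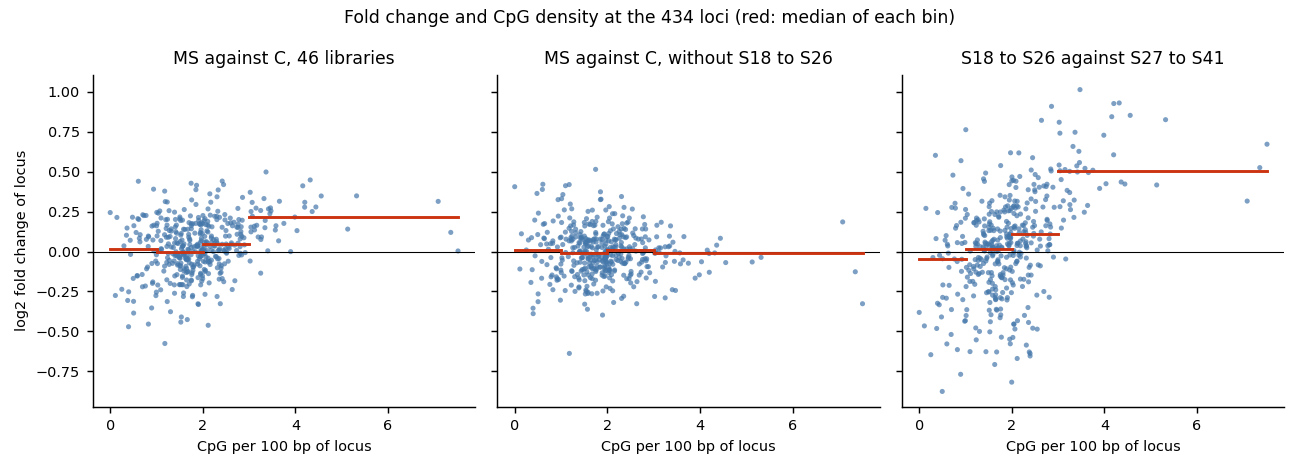
Log2 fold change of each of the 434 loci against its CpG per 100 bp, for MS against C with 46 libraries (left), for MS against C without S18 to S26 (middle) and for S18 to S26 against S27 to S41 (right), with a red line at the median of each CpG bin. Above 3 CpG per 100 bp the median is 0.22 on the left, -0.01 in the middle and 0.50 on the right.

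The loci with the shared 30-base stretch moved with the run as well. Of the 12, 7 passed the limits as higher after MS (median log2 fold change 0.35), and 10 passed as higher in S18 to S26 (median 0.70). With these libraries left out the median of the MS effect was 0.00 and 1 of the 12 passed, the Grik1 locus chr16:88028456-88030212, as lower (-0.24 ± 0.08, SE, adjusted p = 0.721, edgeR). The 3564 loci of the whole series with the stretch had medians of 0.31, 0.71 and -0.04 in the same 3 comparisons. Of these 3564, 25.1% passed the limits for MS, 85.5% for S18 to S26 and 0.926% for MS without those libraries, compared with 58.3%, 83.3% and 8.33% of the 12.

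The Gria3 locus shows this by library. It ranged from 15.1 over 20.3 to 25.1 CPM in Tph2+/+ C and from 17.8 over 25.7 to 54.4 in Tph2+/+ MS, from 15.5 over 20.5 to 25.5 in Tph2+/- C and from 17.2 over 22.7 to 47.9 in Tph2+/- MS, and from 16.7 over 20.5 to 28.5 in Tph2-/- C and from 15.1 over 24.8 to 61.1 in Tph2-/- MS. By run it had a mean of 21.2 ± 3.72 CPM (SD, n = 17) in S1 to S17, 19.9 ± 4.02 (n = 7) in S42 to S48, 21.4 ± 3.61 (n = 14) in S27 to S41 and 38.5 ± 14.6 (n = 8) in S18 to S26. The MS libraries outside S18 to S26 thus lay in the range of the controls.

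Summed over the loci of a gene, no gene of the 36 had an adjusted p under 0.05 for MS against C over genotypes (edgeR over 35441 genes, smallest adjusted p = 0.116, with 15 of the 36 at an unadjusted p under 0.05), and DESeq2 called Gria4 and Grm2. At an unadjusted p under 0.01, 8 of the 36 gene sums (22.2%) passed, all higher after MS, compared with 6.15% of all gene sums, and 28 of the 36 had a positive log2 fold change, with a median of 0.10 against 0.022 over all genes. The 8 were Gria4, Grm2, Grin2c, Gria3, Grik5, Grm6, Grm5 and Grin3b. Without S18 to S26, 1 of the 36 passed, Grin2a, and none of these 8 did. Without Tph2-/- MS replicate 2, 2 of the 36 passed, with library totals 3, and with a term for S42 to S48 1. The shares of all gene sums in these other settings are not given here, so the counts only describe the 36 genes.

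Gria4, which encodes a subunit of fast AMPA receptors, had the smallest p. Of its 5 loci, 3 were more than 50% repeat-masked and 3 had copies elsewhere, so part of the reads may belong to other places. The Gria4 sum ranged from 39 over 45.7 to 55.3 CPM in the 24 C libraries and from 38 over 49.5 to 76.1 in the 22 MS libraries. This was a log2 difference of 0.19 ± 0.06 (SE, adjusted p = 0.116, edgeR), and of 0.08 ± 0.04 without S18 to S26 (adjusted p = 0.873).

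Grm2 had sums from 19.4 over 23.9 to 30.8 CPM in C and from 19.3 over 26.2 to 56.2 in MS. Its log2 difference of 0.25 ± 0.08 (SE, adjusted p = 0.121, edgeR) became 0.05 ± 0.06 without S18 to S26. Grm5, the postsynaptic receptor coupled to calcium release, had sums from 31.5 over 41.8 to 54.3 CPM in C and from 31.6 over 45.7 to 119 in MS, and its log2 fold change of 0.33 ± 0.12 (adjusted p = 0.143) turned to -0.01 ± 0.08. In both genes the medians of all C and all MS libraries differed little. The median of S18 to S26 was 33.6 CPM for Grm2 and 60.4 CPM for Grm5, above every C library. That of S27 to S41 was 25 CPM for Grm2 and 42 CPM for Grm5.

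Grin2c, Gria3, Grik5, Grm6 and Grin3b had log2 fold changes of 0.14 to 0.41 with all fitted libraries and of -0.02 to 0.05 without S18 to S26. Grin3b turned sign, from 0.27 ± 0.10 to -0.02 ± 0.06 (SE). Its sum averaged 47.8 ± 4.46 CPM (SD, n = 17) in S1 to S17 and 41.4 ± 2.74 (n = 7) in S42 to S48, and after MS 45.4 ± 4.97 (n = 14) in S27 to S41 and 72.2 ± 23 (n = 8) in S18 to S26. Among the genes with many loci, the log2 fold change with all fitted libraries was 0.00 ± 0.02 in Grik4, 0.03 ± 0.02 in Grik3 and 0.01 ± 0.03 in Grm8.

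**Figure D4:**
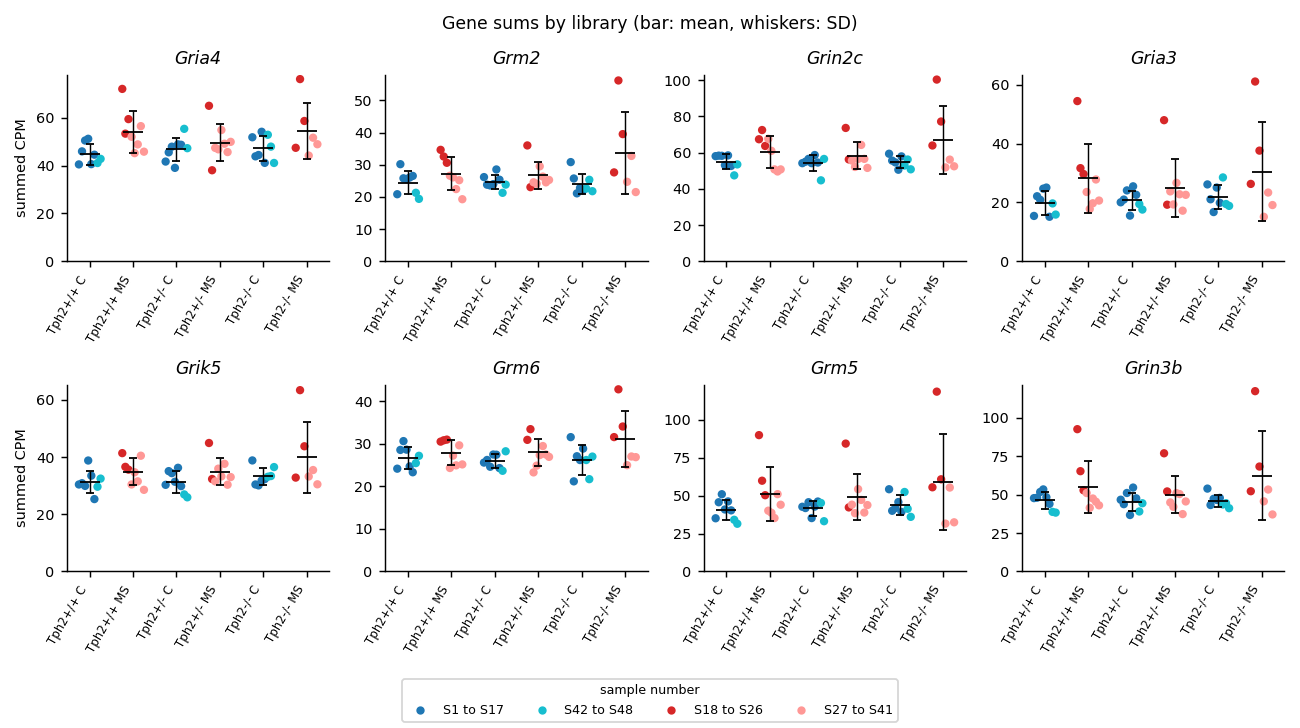
Summed CPM per library of the 8 genes with an unadjusted p under 0.01 for MS against C, by group, coloured by run of sample numbers, with group means and SD. The dark red points of S18 to S26 hold the highest MS libraries, up to 119 CPM in Grm5 and 61.1 CPM in Gria3. The medians of the pale red points of S27 to S41 lie within the range of the blue control points. Single pale red points lie above that range, as in Grin2c (67.6 CPM, controls up to 59.4).

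Grin2a, which encodes a glutamate-binding NMDA receptor subunit, had a larger difference without S18 to S26 than with them. Its sum ranged from 26.8 over 31.1 to 37.2 CPM in C and from 24.8 over 33.8 to 39.8 in MS, a log2 difference of 0.07 ± 0.04 (SE, adjusted p = 0.402, edgeR) that was 0.16 ± 0.04 without S18 to S26 (adjusted p = 0.422). The means by run were 31.7 ± 3 CPM (SD, n = 17) in S1 to S17, 32.3 ± 3.06 (n = 7) in S42 to S48, 35.1 ± 2.77 (n = 14) in S27 to S41 and 30.3 ± 2.86 (n = 8) in S18 to S26, so the mean of this gene was lowest in S18 to S26, where the means of the 8 genes above were highest.

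**Figure D5:**
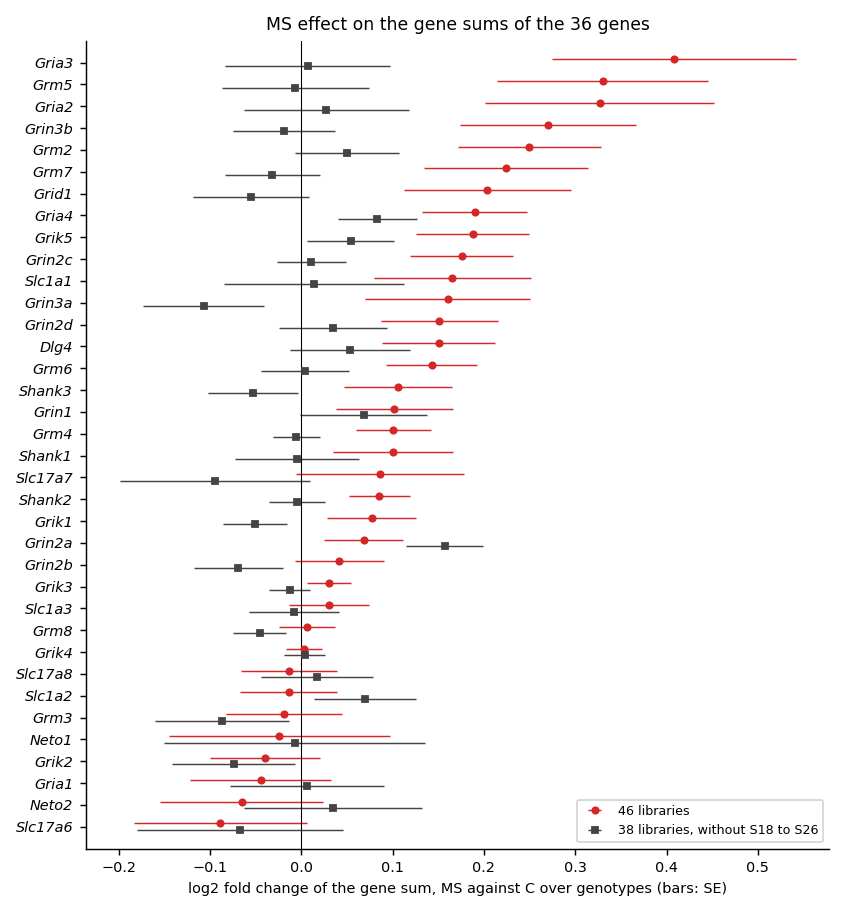
Log2 fold change of the 36 gene sums for MS against C over genotypes, with SE bars, for the 46 fitted libraries (red) and for the 38 libraries without S18 to S26 (grey). The red points of Gria3 (0.41) and Grm5 (0.33) fall to 0.01 and -0.01 in grey, and Grin2a has the highest grey point (0.16).

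Within Tph2+/+, 4 of the 434 loci passed the limits for MS against C, 2 higher and 2 lower, compared with 1.31% of all loci, and none passed an adjusted p of 0.05 (edgeR, smallest 0.752, with 36 loci at an unadjusted p under 0.05 and none adjusted by DESeq2). With library totals 8 passed, all lower, compared with 2.09% of all loci, and the median of all loci shifted from 0.006 to -0.113. The Grik3 locus chr4:125503001-125505002, intronic, ranged from 4.94 over 6.38 to 10 CPM in C and from 6.99 over 9.48 to 10.6 in MS, a difference of 0.43 ± 0.14 on the log2 scale (SE, adjusted p = 0.752, edgeR). The Grin2a locus chr16:9683619-9684269 ranged from 1.26 over 1.98 to 3.35 CPM in C and from 0.776 over 1.23 to 1.64 in MS (-0.72 ± 0.27). The Grm8 locus chr6:27529740-27530363 ranged from 0.353 over 0.859 to 1.9 CPM in C and from 0.411 over 1.46 to 2.73 in MS (0.86 ± 0.32). The ranges of the groups overlapped at all 3, and without S18 to S26 the Grik3 (0.35) and Grin2a (-0.65) loci were outside the limits, the Grm8 locus (1.01) was within them, and 5 of the 434 loci passed, compared with 0.977% of all loci. Of the gene sums, Gria4 passed an unadjusted p of 0.01 (0.28 ± 0.10, SE, adjusted p = 0.647, edgeR), compared with 1.51% of all gene sums, and it did not pass without S18 to S26 (0.15), with library totals or with all 48 libraries.

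Within Tph2+/-, 4 of the 434 loci passed, 2 higher and 2 lower, compared with 0.779% of all loci, and again none after adjustment (edgeR, 24 loci at an unadjusted p under 0.05, none adjusted by DESeq2). The Grm7 locus described above differed by 0.79 ± 0.19 on the log2 scale (SE, adjusted p = 1.0, edgeR). The Grm8 locus chr6:27928982-27929574, intronic with 0.506 CpG per 100 bp, ranged from 1.32 over 2.19 to 2.8 CPM in C and from 0.66 over 1.05 to 1.93 in MS (-0.91 ± 0.26). Grm8, like Grm7, encodes a presynaptic receptor. The Grik1 locus chr16:88283604-88284086 ranged from 0.896 over 1.49 to 2.8 CPM in C and from 0.47 over 0.742 to 1.4 in MS (-0.93 ± 0.32, and -0.89 without S18 to S26, outside the limits). After S18 to S26 were left out, 6 of the 434 loci passed, among them those of Grm7 (0.76) and Grm8 (-0.90), compared with 0.848% of all loci. No gene sum passed an unadjusted p of 0.01, compared with 0.697% of all gene sums, and the smallest p was that of Grin2a (0.14 ± 0.07, SE, adjusted p = 0.998, edgeR).

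Within Tph2-/-, 8 of the 434 loci passed, 4 higher and 4 lower, compared with 1.48% of all loci, and none after adjustment (edgeR, smallest adjusted p = 0.631, 36 loci at an unadjusted p under 0.05, none adjusted by DESeq2). The Grm2 locus chr9:106646790-106648662, which spans a coding exon, ranged from 6.35 over 8.92 to 11.2 CPM in C and from 8.73 over 11.9 to 21.3 in the 6 MS libraries (0.61 ± 0.16, SE, adjusted p = 0.631). The Grik4 locus chr9:42931103-42931942 ranged from 1.8 over 2.71 to 3.48 CPM in C and from 0.576 over 1.63 to 2.43 in MS (-0.74 ± 0.24). Without S18 to S26, which left 3 Tph2-/- MS libraries, 2 loci passed, compared with 1.18% of all loci. The Grm2 (0.35) and Grik4 (-0.62) loci were then outside the limits, and whether the run or the smaller group made the difference was not tested. With the 2 libraries that had been left out, 25 loci passed (5.76%), 23 of them higher, compared with 5.37% of all loci. With library totals 2 were higher and 4 lower, where 1.29% of all loci passed. Of the gene sums, Grm2, Dlg4, Grin2c and Grm6 passed an unadjusted p of 0.01, all higher, compared with 2.48% of all gene sums. The Grm2 sum ranged from 21.1 over 22.7 to 30.8 CPM in C and from 21.5 over 30.2 to 56.2 in MS (0.48 ± 0.14, SE, adjusted p = 0.377, edgeR), and the log2 fold change was 0.12 without S18 to S26. A total of 2 gene sums passed without these libraries, 1 with library totals, 1 with a term for S42 to S48 and 13 with all 48 libraries, and without Tph2-/- MS replicate 2 none did. The shares of all gene sums in these settings are not given here, so nothing about these genes in particular is read from the counts.

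The genotypes were compared over C and MS together, to ask whether a lifelong lack of brain serotonin leaves a mark on these genes. In Tph2-/- against Tph2+/+, 4 of the 434 loci passed the limits, 3 higher and 1 lower (4 and 0 with library totals), compared with 0.748% of all loci, and none had an adjusted p under 0.05 (edgeR, 18 loci at an unadjusted p under 0.05, none adjusted by DESeq2). The Grm3 locus chr5:9569291-9571122 spans a coding exon. It ranged from 4.45 over 6.11 to 7.86 CPM in Tph2+/+ C and from 4.8 over 6.39 to 10.9 in Tph2+/+ MS, and from 6.64 over 8.22 to 10.4 in Tph2-/- C and from 6.71 over 7.78 to 10.3 in Tph2-/- MS. The medians of both Tph2-/- groups lay above those of both Tph2+/+ groups while the ranges overlapped, and those of Tph2+/- lay between them, at 6.75 in C and 7.23 in MS. The difference of the genotypes was 0.33 ± 0.10 on the log2 scale (SE, adjusted p = 1.0, edgeR).

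The Grm4 locus chr17:27502270-27503459, at a transcript start, ranged from 3.67 over 4.63 to 5.71 CPM in Tph2+/+ C and from 4.13 over 5.73 to 6.91 in Tph2-/- C, and from 3.76 over 5.28 to 7.11 in Tph2+/+ MS and from 4.99 over 5.69 to 14.6 in Tph2-/- MS. Its log2 fold change of 0.35 ± 0.12 (SE, adjusted p = 1.0, edgeR) fell to 0.18 without Tph2-/- MS replicate 2, the library at 14.6 CPM. The Grin2d locus chr7:45833419-45835183, a coding exon with 7.08 CpG per 100 bp, ranged from 2.65 over 3.38 to 4.2 CPM in Tph2+/+ C and from 2.85 over 4.29 to 7.47 in Tph2-/- C, and from 3.21 over 4.44 to 6.58 in Tph2+/+ MS and from 3.74 over 5.2 to 8.91 in Tph2-/- MS. Here the genotypes differed by 0.35 ± 0.13 on the log2 scale (SE, adjusted p = 1.0, edgeR) and 0.26 without that library. Without it, 2 of the 434 loci passed, compared with 0.58% of all loci.

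Grm3 was also the 1 gene sum of the 36 with an unadjusted p under 0.01 in this comparison, where 0.838% of all gene sums passed. Grm3 encodes a metabotropic receptor of astrocytes and neurons. Its sum ranged from 7.09 over 8.95 to 10.7 CPM in Tph2+/+ C, from 6.03 over 8.82 to 12.2 in Tph2+/+ MS, from 7.87 over 9.35 to 12.9 in Tph2+/- C, from 8.73 over 9.86 to 11.1 in Tph2+/- MS, from 9.6 over 10.7 to 12.9 in Tph2-/- C and from 8.66 over 11.2 to 12.7 in Tph2-/- MS. This gave a log2 difference of 0.27 ± 0.08 (SE, adjusted p = 0.968, edgeR), and 0.20 without S18 to S26, where no gene sum passed.

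In Tph2+/- against Tph2+/+, 1 of the 434 loci passed, compared with 0.546% of all loci, and none after adjustment (edgeR, 12 loci at an unadjusted p under 0.05, none adjusted by DESeq2). It was the intronic Grin2a locus chr16:9727753-9728283, the locus of lowest mean count (9.3). It ranged from 0.246 over 1.05 to 2.5 CPM in Tph2+/+ C and from 0.178 over 0.919 to 2.84 in Tph2+/+ MS, and from 0 over 0.669 to 1.19 in Tph2+/- C and from 0 over 0.634 to 1.19 in Tph2+/- MS (-0.83 ± 0.30, SE, adjusted p = 1.0). No gene sum passed an unadjusted p of 0.01, compared with 0.46% of all gene sums, and the smallest p was that of Slc1a3, the glutamate transporter of astrocytes (0.10 ± 0.05, SE, adjusted p = 1.0, edgeR).

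The interactions asked whether MS acted differently by genotype. GE1 is the MS effect in Tph2+/- minus that in Tph2+/+, and GE2 the MS effect in Tph2-/- minus that in Tph2+/+. For GE1, 3 of the 434 loci passed the limits, 1 positive and 2 negative, compared with 0.626% of all loci, and for GE2 1 passed, compared with 0.558%. None had an adjusted p under 0.05 (edgeR, 18 loci for GE1 and 16 for GE2 at an unadjusted p under 0.05, none adjusted by DESeq2). With library totals 9 passed for GE1, all positive, compared with 1.28% of all loci, and the median of all loci moved from -0.011 to 0.149.

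For GE1 the intronic Grik4 locus chr9:42916768-42917335 ranged from 0.761 over 1.6 to 1.94 CPM in Tph2+/+ C and from 0.411 over 0.778 to 2.09 in Tph2+/+ MS, and from 0.56 over 0.833 to 1.58 in Tph2+/- C and from 0.982 over 1.23 to 2.52 in Tph2+/- MS. The medians thus moved in opposite directions, with an interaction of 1.31 ± 0.44 on the log2 scale (SE, adjusted p = 1.0, edgeR). The Grik4 locus chr9:42741120-42742475, at a transcript start, moved the other way (-0.74 ± 0.25, SE), with medians in Tph2+/+ of 3.01 CPM for C and 4.37 for MS, and in Tph2+/- of 4.44 for C and 3.82 for MS. The third was the Grm8 locus chr6:27928982-27929574 described above (-1.01 ± 0.36, SE), with Tph2+/+ medians of 1.52 CPM for C and 1.76 for MS. When S18 to S26 were left out, 4 of the 434 loci passed for GE1, 2 positive and 2 negative, compared with 0.766% of all loci. The Grm8 locus (-1.06) stayed within the limits, and both Grik4 loci (1.14 and -0.56) were outside them.

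For GE2 the locus was chr2:25295381-25296247 in a coding exon of Grin1. It ranged from 1.15 over 2.43 to 2.82 CPM in Tph2+/+ C and from 0.822 over 1.62 to 2.2 in Tph2+/+ MS, and from 0.994 over 1.91 to 2.69 in Tph2-/- C and from 1.98 over 2.34 to 4.16 in Tph2-/- MS, an interaction of 1.06 ± 0.32 on the log2 scale (SE, adjusted p = 1.0, edgeR). In Tph2+/- the medians were 2.36 CPM in C and 2.49 in MS. Without S18 to S26, which left 3 Tph2-/- MS libraries, this locus was outside the limits (0.80). In that fit 4 of the 434 loci passed, compared with 0.855% of all loci. No gene sum passed an unadjusted p of 0.01 in either interaction, compared with 0.514% (GE1) and 0.542% (GE2) of all gene sums. The smallest p values were those of Shank2 for GE1 (-0.19 ± 0.08, SE, adjusted p = 1.0, edgeR) and of Dlg4 for GE2 (0.35 ± 0.15, SE, adjusted p = 1.0, edgeR).

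A list of 42 other genes of the glutamate synapse, among them further transporters, the auxiliary subunits of AMPA receptors and the Dlgap and Homer scaffolds, stood beside the 36. It held 531 loci in 40 genes. By the same limits 18 (3.39%) passed for MS over genotypes, 13 higher and 5 lower, against 3.63% of all loci, and 4 within Tph2+/+, 7 within Tph2+/- and 14 within Tph2-/-, where 1.31%, 0.779% and 1.48% of all loci passed. For the genotypes 3 passed in Tph2+/- and 2 in Tph2-/- (0.546% and 0.748% of all loci), for GE1 none and for GE2 5 (0.626% and 0.558% of all loci), and no locus of the list had an adjusted p under 0.05 (edgeR, 56 loci at an unadjusted p under 0.05 for MS over genotypes). Their loci of smallest p included an intronic Dlgap2 locus within Tph2-/- (chr8:14195099-14197214, 0.52 ± 0.15, SE, adjusted p = 0.631, edgeR) and a coding-exon locus of Cnih3 within Tph2+/- (chr1:181409420-181410325, 0.75 ± 0.23, SE, adjusted p = 1.0, edgeR). Between S18 to S26 and S27 to S41, 58 of the 531 loci (10.9%) passed, 46 of them higher.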

How the data were processed

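DNA from the amygdala of 48 mice was sonicated, a protein domain that binds methylated CpG was used to enrich methylated fragments, and 50 bp paired reads were sequenced. The authors mapped the reads with Bowtie2 2.1.0 to GRCm38, called peaks with MACS, merged peaks over libraries and deposited raw read counts of the 187695 merged peaks (loci) with DiffBind 2.0.9. The treatment of duplicate reads is not given in the sources used here, and 55 to 76% of the counts above 0 in a library were even. Counting intervals would cover counting error only, and the standard errors come from the spread between libraries of different mice. Since litters and not single mice were assigned to MS or C, littermates may resemble each other. The labels give no litter, so each mouse was treated as independent. Standard errors and p-values of the MS comparisons may therefore be too small.

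Samples were grouped by the labels for genotype and separation. The counts were tested with edgeR 4.0.16 in R 4.3.3 (quasi-likelihood, robust, TMM factors, 1 term per group, no covariate, no filter), with Benjamini-Hochberg adjustment over all loci. A total of 46 libraries were fitted. The study left out 2 Tph2-/- MS libraries that the labels do not name, and the 2 with the lowest totals, replicates 3 and 7, took their place. The limits of the study were an unadjusted p under 0.01 and an absolute log2 fold change above 0.2. CPM values were counts divided by the TMM-scaled library size (edgeR cpm). Gene sums added the counts of all loci that overlap a RefSeq gene span with 5 kb on either side, for 35441 genes, and they used the scaling factors of the loci. Copies elsewhere were sought with minimap2 2.31 (95% identity over 50% of the locus). The fits were tested on simulated data. No pair of libraries was identical, and counts of the 168 pairs within groups differed by more than sampling noise (chi-square per locus 2.05 to 12.6).

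The members and lists were chosen with earlier results of these data known. Loci named with values were up to 3 of smallest p per contrast among those past the limits and the locus of highest CPM per kb in each role. Gene sums named were those of smallest p per contrast. The other gene sums under an unadjusted p of 0.01, Grin2a, the loci that still passed without S18 to S26, those called by DESeq2 and the loci with the shared stretch were chosen after their values were seen. Promoter sequences came from RefSeq (GRCm38). Alternatives were DESeq2 1.42.0, its size factors, library totals, a mean of 20 or more counts, all 48 libraries, a replicate block, leaving out S18 to S26, a loess offset on CpG density, runs of sample numbers or a term for S42 to S48 as a covariate, and gene spans without flanks. Chosen after seeing the data were GENCODE gene spans and leaving out Tph2-/- MS replicate 2.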

Additional observations from a re-analysis of the deposited data

Results flagged for a closer look

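A library was set apart where its gap to the nearest other library of its group was above Dixon's critical value at 95%. This held for 31 of 234 groups tested, over 26 loci and 13 gene sums. The rule marks about 1 in 20 groups of independent, normally distributed values. The groups here share libraries, and the Gria3 locus and the Gria3 sum are the same values, so nothing is read from the count. No interaction at a locus had an adjusted p under 0.05 by edgeR.

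Replicate 1 of Tph2+/+ MS stood above the rest of its group at the Grm5 locus chr7:87902402-87904346 (65.3 CPM, others 20.2 to 40.4), the Gria3 locus and with it the Gria3 sum (54.4 CPM, others 17.8 to 31.6) and the Grik1 locus chr16:88028456-88030212 (38.8 CPM, others 10.7 to 22.3). It was also highest in the sums of Grin3b (92.6 CPM, others 41.4 to 65.2) and Grm5 (90 CPM, others 35.3 to 59.9).

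Replicate 1 of Tph2+/- MS stood above its group at the same loci of Grm5 (56.8 CPM, others 20.2 to 34.4), Gria3 (47.9 CPM as locus and sum, others 17.2 to 26.7) and Grik1 (38.2 CPM, others 13 to 20.1). It was also highest at the Grid1 locus chr14:35432048-35434132 (52.2 CPM, others 17.6 to 26.7), the Grin3a locus chr4:49731185-49732965 (31.4 CPM, others 12.7 to 19.2), the Shank2 locus chr7:144353579-144354919 (16 CPM, others 5.21 to 9.82) and the Grm2 locus (14.8 CPM, others 7.53 to 9.49). Its sums were highest for Grin3b (76.9 CPM, others 37.3 to 52.1), Grm5 (84.4 CPM, others 38.5 to 54.4) and Shank2 (92.2 CPM, others 76 to 82.1).

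Replicate 2 of Tph2-/- MS stood above its group in the Grm5 sum (119 CPM, others 31.6 to 60.8), at the Grm4 locus chr17:27502270-27503459 (14.6 CPM, others 4.99 to 6.05), at the Grm7 locus chr6:111013145-111014219 (11.6 CPM, others 3.14 to 6.04) and at the Grin2d locus (8.91 CPM, others 3.74 to 5.55). These 3 libraries carry numbers within S18 to S26, and their counts rose with CpG density by 0.124, 0.179 and 0.269 log2 units per SD. The part of the run in these values was not tested.

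Single libraries outside this pattern were high at the Grin2a locus chr16:9727753-9728283 in Tph2+/+ C replicate 3 (2.5 CPM, others 0.246 to 1.17), at the Grm4 locus chr17:27502270-27503459 in Tph2+/- C replicate 3 (9.16 CPM, others 4.34 to 6.57), at the Grm8 locus chr6:27529740-27530363 in Tph2-/- C replicate 4 (2.86 CPM, others 0.578 to 1.59) and at the Grm7 locus in Tph2+/- C replicate 5 (5.04 CPM, others 2.39 to 3.41). The Grik4 locus chr9:42916768-42917335 was high in Tph2+/+ MS replicate 7 (2.09 CPM, others 0.411 to 1.13) and in Tph2+/- MS replicate 4 (2.52 CPM, others 0.982 to 1.49), and the Shank2 sum in Tph2-/- C replicate 1 (90.3 CPM, others 75.2 to 82.2). Low values were those of the Grm3 locus in Tph2+/- MS replicate 8 (4.44 CPM, others 6.55 to 8.29), of the Grik4 locus chr9:42559502-42560765 in Tph2+/+ MS replicate 3 (0.355 CPM, others 2.05 to 3.24) and of the Grin2c sum in Tph2+/- C replicate 7 (44.7 CPM, others 54.2 to 58.6).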

How the results depend on the processing

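Pairs of percentages in brackets give the share of the tested loci of these genes, then that of all loci. Of the 434 loci, 27 (6.22%, 3.63%) passed the limits for MS over genotypes. With library totals 17 (3.92%, 3.24%) did, and without S18 to S26 4 (0.922%, 1.26%). A loess offset on CpG density left 15 (3.46%, 2.91%) and a term for S42 to S48 left 12 (2.76%, 2.39%). Leaving out Tph2-/- MS replicate 2 left 12 (2.76%, 2.06%). DESeq2 gave 5 loci and 2 gene sums an adjusted p under 0.05 in this comparison, and edgeR none. Within Tph2+/+ the count of 4 (0.922%, 1.31%) became 8 with library totals (1.84%, 2.09%). It was 1 among loci with a mean of 20 or more counts (0.313%, 1.32%) and 2 with the term for S42 to S48 (0.461%, 1.2%). Within Tph2+/- the 4 (0.922%, 0.779%) became 1 at 20 or more counts (0.313%, 0.746%). Within Tph2-/- the 8 (1.84%, 1.48%) became 25 with all 48 libraries (5.76%, 5.37%), 2 without S18 to S26 (0.461%, 1.18%) and 4 with the term (0.922%, 1.16%). For Tph2+/- against Tph2+/+ the 1 (0.23%, 0.546%) became 0 at 20 or more counts (0%, 0.516%) and 2 without S18 to S26 (0.461%, 0.738%). For Tph2-/- against Tph2+/+ the 4 (0.922%, 0.748%) became 8 with all 48 libraries (1.84%, 1.04%). They became 2 with the loess offset (0.461%, 0.694%) and 2 without Tph2-/- MS replicate 2 (0.461%, 0.58%). For GE1 the 3 (0.691%, 0.626%) became 9 with library totals (2.07%, 1.28%) and 1 at 20 or more counts (0.313%, 0.615%). For GE2 the 1 (0.23%, 0.558%) became 2 with all 48 libraries (0.461%, 0.631%) and 4 without S18 to S26 (0.922%, 0.855%). For MS over genotypes the sums of Grin3b (-0.02) and Grm5 (-0.01) changed sign without S18 to S26, as did the loci of highest level of Grm5 (-0.01), Grik1 (-0.24), Grid1 (-0.07), Grin3a (-0.15), Shank2 (-0.08) and Neto2 (0.11). The loess offset turned those of Grin3a (-0.03) and Shank2 (-0.02), and leaving out Tph2-/- MS replicate 2 that of Neto2 (0.01). A filter at 20 counts tests 319 of the 434 loci, and other causes of these changes were not tested. Of 462 recomputed values of 47 fold changes at named loci and gene sums, 376 kept their direction and side of the threshold, 71 kept their direction and no longer passed, 4 passed newly and 11 reversed. Each replicate was not left out in turn, since groups held 6 to 8 libraries.

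The replicate numbers do not pair the mice: residuals of the 110 pairs with the same number had a median correlation of 0.0142 (-0.192 to 0.308), 14 were above 0.1, and 9 of 46 libraries matched their own number best. With the replicate number as a block 28 loci (6.45%) passed for MS over genotypes, 19 higher and 9 lower, compared with 3.68% of all loci. The count of loci past the limits stayed within 1.5 times in the other comparisons. Within Tph2+/+ the block left the Grm8 locus chr6:27529740-27530363 (0.82) outside the limits, and no gene sum passed, that of Gria4 included (0.27). Depth limits single loci, which held a median of 26.6 counts per library.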

Other observations

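The 2 Tph2-/- MS libraries left out of the fits had values of their own, given here as CPM of the library total. In replicate 3 the sum was 75.4 CPM for Gria3, 114 CPM for Grm5 and 78.1 CPM for Gria4, where the other 6 libraries of the group ranged from 15.9 to 47.7, from 33.1 to 92.7 and from 46.3 to 59.8 CPM. The same library was below those 6 in Grin2c (45.8 CPM, others 53 to 78.7), Grik5 (26.8 CPM, others 32.1 to 49.5) and Grm6 (20.9 CPM, others 25.5 to 34.7), so the genes of this list did not deviate together in it. Replicate 7 lay within the range of the other 6 for Gria3 (30.9 CPM), Grm5 (54.2 CPM), Gria4 (56.9 CPM), Grm2 (24.7 CPM) and Grin3b (52.7 CPM), and below it for Grin2c (51.9 CPM), Grik5 (30.6 CPM) and Grm6 (24.2 CPM).

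Of the other genes of the glutamate synapse, the loci of smallest p in the genotype comparisons were an intronic Grip1 locus, higher in Tph2+/- than in Tph2+/+ (chr10:119895877-119896682, 0.48 ± 0.15, SE, adjusted p = 1.0, edgeR), and a locus upstream of Slc1a5, lower in Tph2-/- (chr7:16777328-16778394, -0.38 ± 0.14, SE, adjusted p = 1.0, edgeR). For the interactions they were an intronic Cnih3 locus for GE1 (chr1:181407304-181408065, 0.97 ± 0.39, SE, adjusted p = 1.0, edgeR) and an intronic Dlgap2 locus for GE2 (chr8:14229686-14230336, 1.21 ± 0.38, SE, adjusted p = 1.0, edgeR).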
